A study of Mus musculus with 55 samples.

Results

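A set of 8 genes of neurosteroid synthesis and metabolism was followed through the dorsal hippocampus of cycling females and males, out of 55487 Ensembl genes counted. They were chosen by name, as Star, Tspo, Srd5a1, Srd5a3, Akr1c14, Hsd17b4, Hsd17b12 and Cyp7b1, and 7 of the 8 were expressed highly enough to be among the 16168 genes tested. RNA was sequenced from 55 mice, with 1 library per mouse. WT and KO mice alike were on a C57/BL6j background. The WT mice comprised 5 males and 4 groups of females. Of these females, 7 were in estrus, 5 in proestrus, 6 in diestrus and 4 in metestrus. The KO mice lacked exon 4 of Cnih3, an auxiliary subunit of AMPA receptors, in every cell, and comprised 7 males and, in the same order of stages, 6, 4, 6 and 5 females. All mice were 10.86 to 23.71 weeks old, and the labels name no treatment. The parents of all KO mice and of 11 of the 27 WT mice are listed as CNIH3 x B6, a label and not the exact cross, since KO mice were bred from parents that both carried the mutation. The other 16 WT mice are listed with B6 x B6 parents, so genotype and parental breeding were partly confounded.

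Neurosteroids are steroids made or modified within the brain. Cholesterol is first carried into mitochondria, a step in which StAR and the translocator protein TSPO take part, and is cleaved there to pregnenolone. Progesterone is then reduced by 5-alpha-reductase (Srd5a1) and by a 3-alpha-hydroxysteroid dehydrogenase (Akr1c14 in mice) to allopregnanolone, a potent positive modulator of GABA-A receptors. Estradiol and estrone are interconverted by 17-beta-hydroxysteroid dehydrogenases, among which Hsd17b4 and Hsd17b12 also serve fatty acid metabolism, and Cyp7b1 hydroxylates pregnenolone, dehydroepiandrosterone and oxysterols. Srd5a3 belongs to the 5-alpha-reductase family, and its best known role is the reduction of polyprenol to dolichol, the lipid carrier of N-glycosylation.

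The totals behind every value were 25881295 to 63547098 counts per library. Markers of the tissue were present, with all 7 markers of dentate granule cells and all 8 of CA1 and CA3 pyramidal cells among the genes tested. Cnih3 itself was lower in KO than in WT mice by 0.34 on the log2 scale (SE 0.08, FDR = 0.0069 by limma) and was detected in all KO libraries, as the deletion removes only 1 exon. Age was not balanced. Of 17 mice under 14 weeks, 7 were in diestrus, 3 of 6 WT and 4 of 6 KO. In KO proestrus 3 of 4 mice were under 14 weeks. KO males were 18.29 to 23.71 weeks old and WT estrus mice 16.29 to 20.29 weeks. Stage or sex and age cannot be told apart where a result rests on these mice, as in KO diestrus against KO males. Libraries were weighted for quality in the fit, and in KO diestrus the 4 young mice had weights of 1.61 to 1.74 against 0.51 and 0.43 for the older 2.

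All 8 genes differed widely in level. Values are given as log2 CPM, where CPM is a count scaled to the total of its library, and differences as the first group minus the second in the same units. Levels of different genes were compared only as CPM per kb of exon. Hsd17b12 (31.3 CPM per kb, median of 55 mice) and Hsd17b4 (18.4 CPM per kb) were the most abundant, followed by Cyp7b1 at 10.4 CPM per kb. Tspo (5.17 CPM per kb) and Srd5a1 (4.49 CPM per kb) came next. Srd5a3 (2.36 CPM per kb) and Star (1.20 CPM per kb) were low, and Akr1c14, the 3-alpha reducing enzyme, stood at 0.092 CPM per kb. Per length, Akr1c14 and Star were thus the least abundant of the set.

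**Figure D1:**
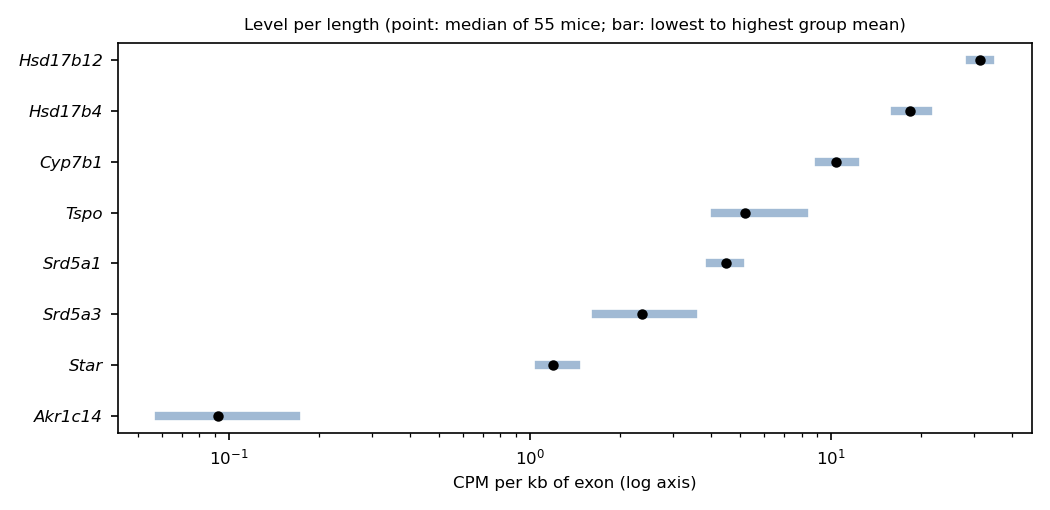
Level of each of the 8 genes per length, as CPM per kb of exon on a log axis; the point is the median of 55 mice and the bar runs from the lowest to the highest of the 10 group means. Hsd17b12 stood highest at 31.3 and Akr1c14 lowest at 0.092 CPM per kb, and the bars of Hsd17b12 and Hsd17b4 lie to the right of all others.

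Positions are given in GRCm38. Star spans chr8:25806555-25815982 on the plus strand, Tspo chr15:83563592-83574203 (plus), Srd5a3 chr5:76140271-76155504 (plus) and Akr1c14 chr13:4049011-4090688 (plus). Srd5a1 spans chr13:69573449-69611442 (minus), Hsd17b12 chr2:94032689-94157964 (minus) and Cyp7b1 chr3:18071950-18243338 (minus). Libraries did not mark strand, so reads in the 53 exon bases that Tspo shares with Mcat on the opposite strand, 5.04% of its exons, could not be assigned by strand. Srd5a1 shares 16.4% of its exon bases with the sense-overlapping transcript Gm17108.

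Srd5a3 varied most of the tested genes, while Srd5a1, of the same enzyme family, passed no test. Their promoters are printed here for that contrast (RefSeq, GRCm38.p6, 250 bases before the annotated start, read in the direction of the gene). Capitals mark the GC box GGGCGG or its complement, and the CCAAT box, searched on both strands.
Srd5a3: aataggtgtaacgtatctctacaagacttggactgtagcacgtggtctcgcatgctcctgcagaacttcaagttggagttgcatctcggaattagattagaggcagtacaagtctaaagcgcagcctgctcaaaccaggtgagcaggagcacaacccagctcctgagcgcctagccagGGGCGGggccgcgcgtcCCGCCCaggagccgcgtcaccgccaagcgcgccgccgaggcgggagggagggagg
Srd5a1: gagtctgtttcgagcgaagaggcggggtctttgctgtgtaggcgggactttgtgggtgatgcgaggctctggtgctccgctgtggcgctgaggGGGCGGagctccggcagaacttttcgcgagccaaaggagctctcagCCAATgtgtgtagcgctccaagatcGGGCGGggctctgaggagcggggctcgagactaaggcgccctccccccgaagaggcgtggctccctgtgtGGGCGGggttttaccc
The Srd5a3 window is chr5:76140023-76140272 (plus strand) and the Srd5a1 window chr13:69611464-69611713 (minus strand). Srd5a3 held 2 GC boxes, at positions -72 and -55 counted from the start site, and Srd5a1 held 3, at -157, -86 and -16. A GC box occurred in 32.7% of 32851 promoter windows of this length. The CCAAT box was found once in Srd5a1, at -111, and not in Srd5a3 (33.8% of all windows). Neither window held the estrogen response element GGTCANNNTGACC (0.064% of windows), its core AGGTCA (14.0%), the element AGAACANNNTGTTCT shared by glucocorticoid and progesterone receptors (0.0091%), its core TGTTCT (16.1%), the CRE TGACGTCA (1.55%) or TATAAA (12.4%). The core AGGTCA overlaps part of the estrogen element in some of its forms and TGTTCT lies within the other element, so those matches overlap. Of the 8 genes, 4 had a promoter in the table used, the other two being Akr1c14 and Hsd17b12. Star, Tspo, Cyp7b1 and Hsd17b4 had no entry.

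Of the 273 tests of a gene in a comparison, 12 passed an FDR of 0.05 with limma, counting 39 comparisons of the 7 tested genes. Between pairs of stages within a genotype, 7 of 84 tests passed (8.33%), against 10.6% of all tests of all genes, so the set stood near the background. Against males 4 of 70 passed (5.71%, background 4.31%), and all 4 were in the comparison of KO diestrus with KO males. Between KO and WT 1 of 42 passed (2.38%, background 0.654%). No interaction of genotype with stage or sex passed for these genes (0 of 77) or for any gene (background 0%). Of the 77, 6 had an unadjusted p under 0.05 by limma, a level that 394 to 2648 of all 16168 genes reached in an interaction. None of the 12 calls was made by edgeR's quasi-likelihood test, by DESeq2 or by limma without quality weights. Over all genes these 3 fits also made fewer calls between stages, 1389, 2301 and 2392, against 20523 with weighted limma. At an unadjusted p under 0.05 those 3 fits gave 9, 10 and 11 of the 84 stage tests. They gave 4, 5 and 4 of the tests against males and 3 each of the genotype tests. Shares over all genes at that level were not computed for these fits, so the counts are descriptions. The direction of all 12 differences was the same in the 3 fits.

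**Figure D2:**
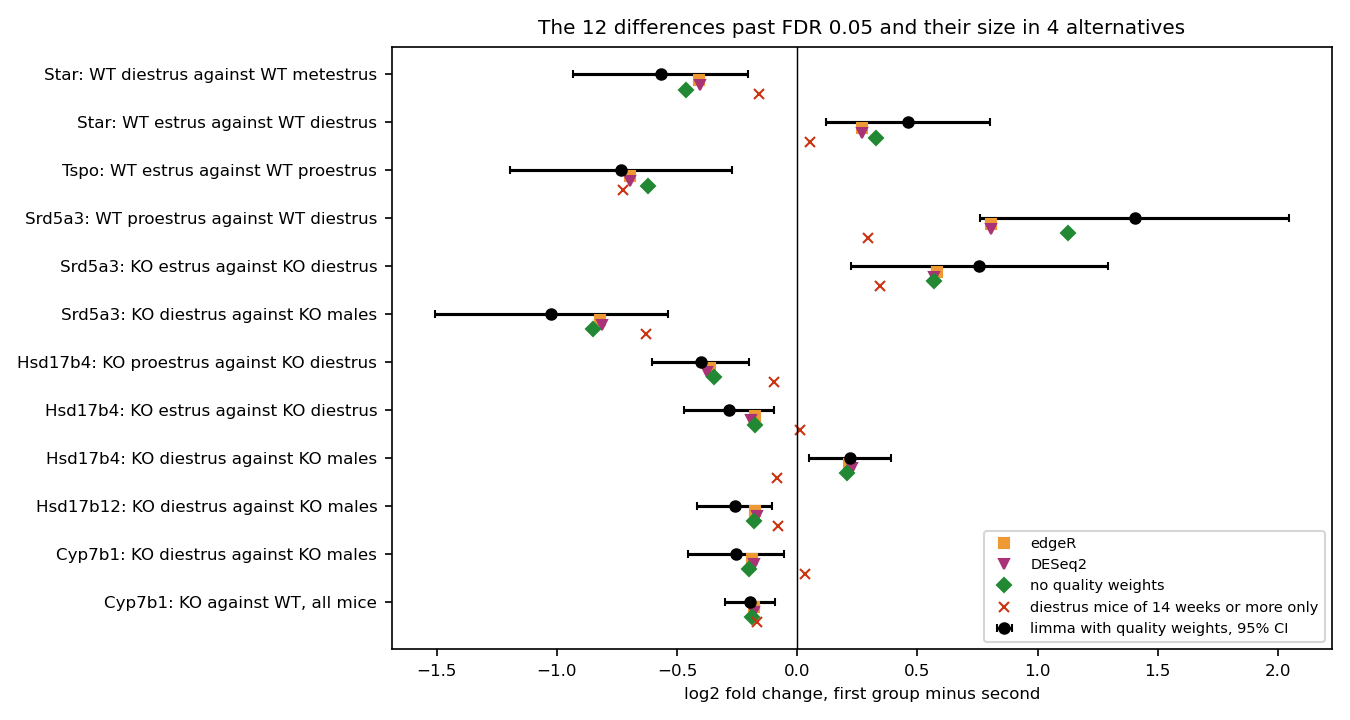
The 12 differences past an FDR of 0.05, as log2 fold change of the first group minus the second, with the 95% confidence interval of the limma fit (black) and the size in 4 alternative fits (coloured). Srd5a3 spanned the widest range, from -1.02 to 1.41, and the crosses, from the diestrus mice of 14 weeks or more alone, were smaller in size for all 12 and on the other side of 0 for 3, all in comparisons with KO diestrus.

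Srd5a3 was the most variable of the 7 tested genes. Over 55 mice it ranged from 1.91 to 4.27 log2 CPM, with a pooled SD within groups of 0.56, against 0.16 for Hsd17b12, the steadiest. Its group means ran from 2.89 in KO diestrus and 2.93 in WT diestrus to 3.73 in KO males and 4.01 in WT proestrus. Between them came KO proestrus (3.22), WT estrus (3.28), WT metestrus (3.32), KO metestrus (3.36), KO estrus (3.47) and WT males (3.50). No step between neighbours in this order exceeded the larger of the SDs of the groups on its sides.

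In WT mice Srd5a3 rose from diestrus to proestrus. In diestrus the 6 mice ranged from 1.91 to 4.08 log2 CPM with a median of 2.76. The 5 proestrus mice had 3.82, 3.95, 4.00, 4.10 and 4.19 log2 CPM. Proestrus mice thus sat together at the top, while diestrus was split, and 2 diestrus mice overlapped them. The difference was 1.41 (SE 0.32, 95% CI 0.76 to 2.05, FDR = 0.0063 by limma), with 9.66% of all genes called in this comparison. The low diestrus values were 1.91, 2.04 and 2.16, all in mice under 14 weeks, and the 3 older mice had 3.35, 4.02 and 4.08. With the older diestrus mice alone the difference was 0.29 (FDR = 0.86 by limma). With age in weeks as a term in the fit the difference was still called. Leaving out a single young mouse, replicate 3, 4 or 5 of the group, was enough to bring it to between 0.70 and 0.72 (FDR 0.31 to 0.32 by limma). The proestrus mice under 14 weeks had 4.00 and 4.19 log2 CPM.

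Against the other WT stages proestrus was again the higher group. Metestrus mice had 2.68, 3.38, 3.44 and 3.80 log2 CPM, all below the 5 proestrus mice, and proestrus was higher by 0.80 (SE 0.27), which did not pass (FDR = 0.14 by limma). How many of all genes separate these groups was not computed. Estrus mice ranged from 2.77 to 3.94 with a median of 3.05 and overlapped proestrus in the upper part. Estrus was lower than proestrus by 0.75 (SE 0.24, FDR = 0.051 by limma), just outside the threshold. Of 12 alternatives, 5 called it, at FDR 0.032 to 0.049, as did leaving out estrus replicate 2, 6 or 7 (FDR 0.024 to 0.038). With the mice of CNIH3 x B6 parents alone, which left 1 mouse in each group, it was 0.03. Estrus against diestrus differed by 0.66 (FDR = 0.11 by limma), and by -0.44 with the older diestrus mice alone.

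In KO mice proestrus was not the highest group. The 4 KO proestrus mice had 2.57, 3.24, 3.44 and 3.64 log2 CPM, all below the 5 WT proestrus mice. The share of all genes that separate these groups was not computed. KO was lower than WT in proestrus by 0.69 (SE 0.28, 95% CI 0.12 to 1.26 lower), which did not pass (FDR = 0.27 by limma). The change from metestrus to proestrus was smaller in KO than in WT by 0.92 (SE 0.39, FDR = 0.25 by limma). For diestrus to proestrus it was smaller by 0.82 (FDR = 0.41 by limma), and the change from proestrus to estrus was more positive in KO by 0.92 (SE 0.37, FDR = 0.23 by limma). The 95% CI of the first ran from -1.71 to -0.13, of the second from -1.68 to 0.04 and of the third from 0.17 to 1.67, and none passed when corrected over all genes.

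KO diestrus was the low group for Srd5a3 in that genotype. Its 6 mice ranged from 2.35 to 3.56 log2 CPM with a median of 2.77. KO estrus mice ranged from 2.52 to 3.85 (median 3.65), and KO males from 3.19 to 4.04 (median 3.93). Of the 6 diestrus mice, 4 lay below every male. Estrus was higher than diestrus by 0.76 (SE 0.27, FDR = 0.027 by limma, background 30.7%), and diestrus was lower than males by 1.02 (SE 0.24, FDR = 0.0012 by limma, background 28.7%). The latter held its call with each of the 13 mice left out in turn (0.90 to 1.17 lower). The former lost it without estrus replicate 2 or 6 or diestrus replicate 2 or 5 (0.64 to 0.71, FDR 0.068 to 0.10). With the 2 older KO diestrus mice alone, 2.84 and 3.56 log2 CPM, the values were 0.35 higher in estrus and 0.63 lower than males, neither past the threshold (FDR = 1.00 and 0.67 by limma). With age as a term in the fit the call against males was kept and that of estrus against diestrus was not. In WT mice diestrus was lower than males by 0.98 (SE 0.35, FDR = 0.17 by limma), and the older WT diestrus mice were 0.13 higher.

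**Figure D3:**
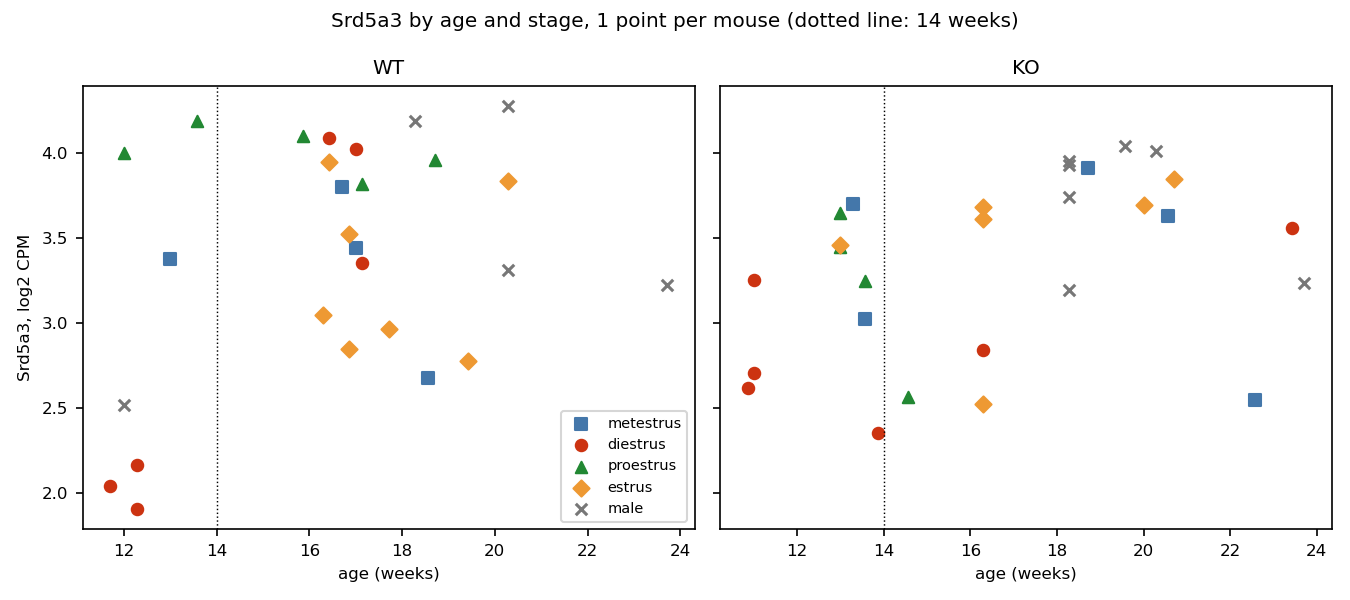
Srd5a3 in log2 CPM against age in weeks, 1 point per mouse, WT on the left and KO on the right, with stage or sex by symbol and a dotted line at 14 weeks. The 3 WT diestrus mice under 14 weeks (1.91 to 2.16) lie below all other WT mice, and WT proestrus mice of any age lie between 3.82 and 4.19.

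Markers of mature oligodendrocytes moved in the same comparisons as Srd5a3. Of 15 markers, 12 rose from WT diestrus to proestrus (median 0.92, all genes 0.03), with Mag, a myelin-associated glycoprotein, at 1.51 and Cldn11, a claudin of myelin, at 0.99. Between KO diestrus and KO males 13 of 15 were lower (median -0.91), and from KO diestrus to estrus 11 of 15 rose. Their summed level was 3502 to 3953 CPM in the 3 young WT diestrus mice and 5185 to 6395 in the older 3. Over the 55 libraries the correlation of Srd5a3 with that sum, on log2 scales, was r = 0.42, falling to 0.21 after removal of group means. With astrocyte markers it was -0.59 (-0.48 after removal of group means). Other cell types followed Srd5a3 about as closely or more closely. The values were -0.55 (-0.47) for GABAergic interneurons, 0.49 (0.34) for oligodendrocyte precursors and 0.39 (0.47) for dentate granule cells. The part of cell composition in the Srd5a3 values was not tested, and in bulk tissue fewer cells of a type cannot be told apart from less RNA per cell.

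Across the 55 libraries 3 genes followed Srd5a3 most closely. The correlations of log2 CPM were r = 0.93 for Gde1, a glycerophosphodiester phosphodiesterase, 0.93 for Acaa1a, a thiolase of peroxisomal beta-oxidation, and 0.91 for Dgat2, which makes triacylglycerol. They are given as a description, since libraries share depth, stage and preparation. Among the partners of Srd5a3 in dolichol synthesis and use (Dhdds, Nus1, Dolk, Dolpp1 and Dpagt1), none of 5 passed from WT diestrus to proestrus. The values of the leading 3 were 0.29 for Dolpp1, 0.25 for Dpagt1 and 0.08 for Nus1. In KO diestrus 3 were lower than in KO males, by 0.51 for Dpagt1, which starts the glycan on dolichol, 0.43 for Dolk and 0.47 for Dolpp1 (FDR 8.91e-04, 0.0010 and 0.0012 by limma). Dpagt1 also rose from KO diestrus to estrus (0.56), while Dhdds, a subunit of the polyprenol synthase, fell by 0.18.

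Srd5a1, the 5-alpha-reductase of neurosteroid synthesis, passed the test in no comparison. Its group means lay between 3.51 (SD 0.30, n = 7) in WT estrus and 3.86 (SD 0.13, n = 4) in KO proestrus. Differences between stages were -0.27 to 0.22, the smallest FDR was 0.095 by limma, and the widest intervals reached from -0.51 to 0.47. KO and WT differed by at most 0.15. The correlation of Srd5a1 with Srd5a3 across libraries was r = -0.30, and Srd5a1's closest gene was Pbk at only 0.61.

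Akr1c14 was too low to test. It had a median of 14 counts per library and a maximum of 49, was at 0 in 2 libraries (1 in WT diestrus, 1 in WT proestrus) and exceeded 1 CPM in none. A count of 0 allows up to 3 counts. All mice of WT metestrus had 14 to 40 counts and all of KO diestrus 16 to 42, while the lowest mouse of each remaining group had 0 to 7. No change with stage or genotype could be read at this depth. Of 11 genes listed with Srd5a1 and Srd5a3 for 5-alpha and 3-alpha reduction or oxidation, Akr1c14 among them, only Akr1c18 and Rdh5 were tested. Akr1c18, a dehydrogenase that inactivates progesterone, was 0.30 higher in KO diestrus than in KO males (SE 0.11, FDR = 0.044 by limma). Rdh5, a retinol dehydrogenase, differed by 1.22 between WT proestrus and diestrus and did not pass (FDR = 0.088 by limma).

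**Figure D4:**
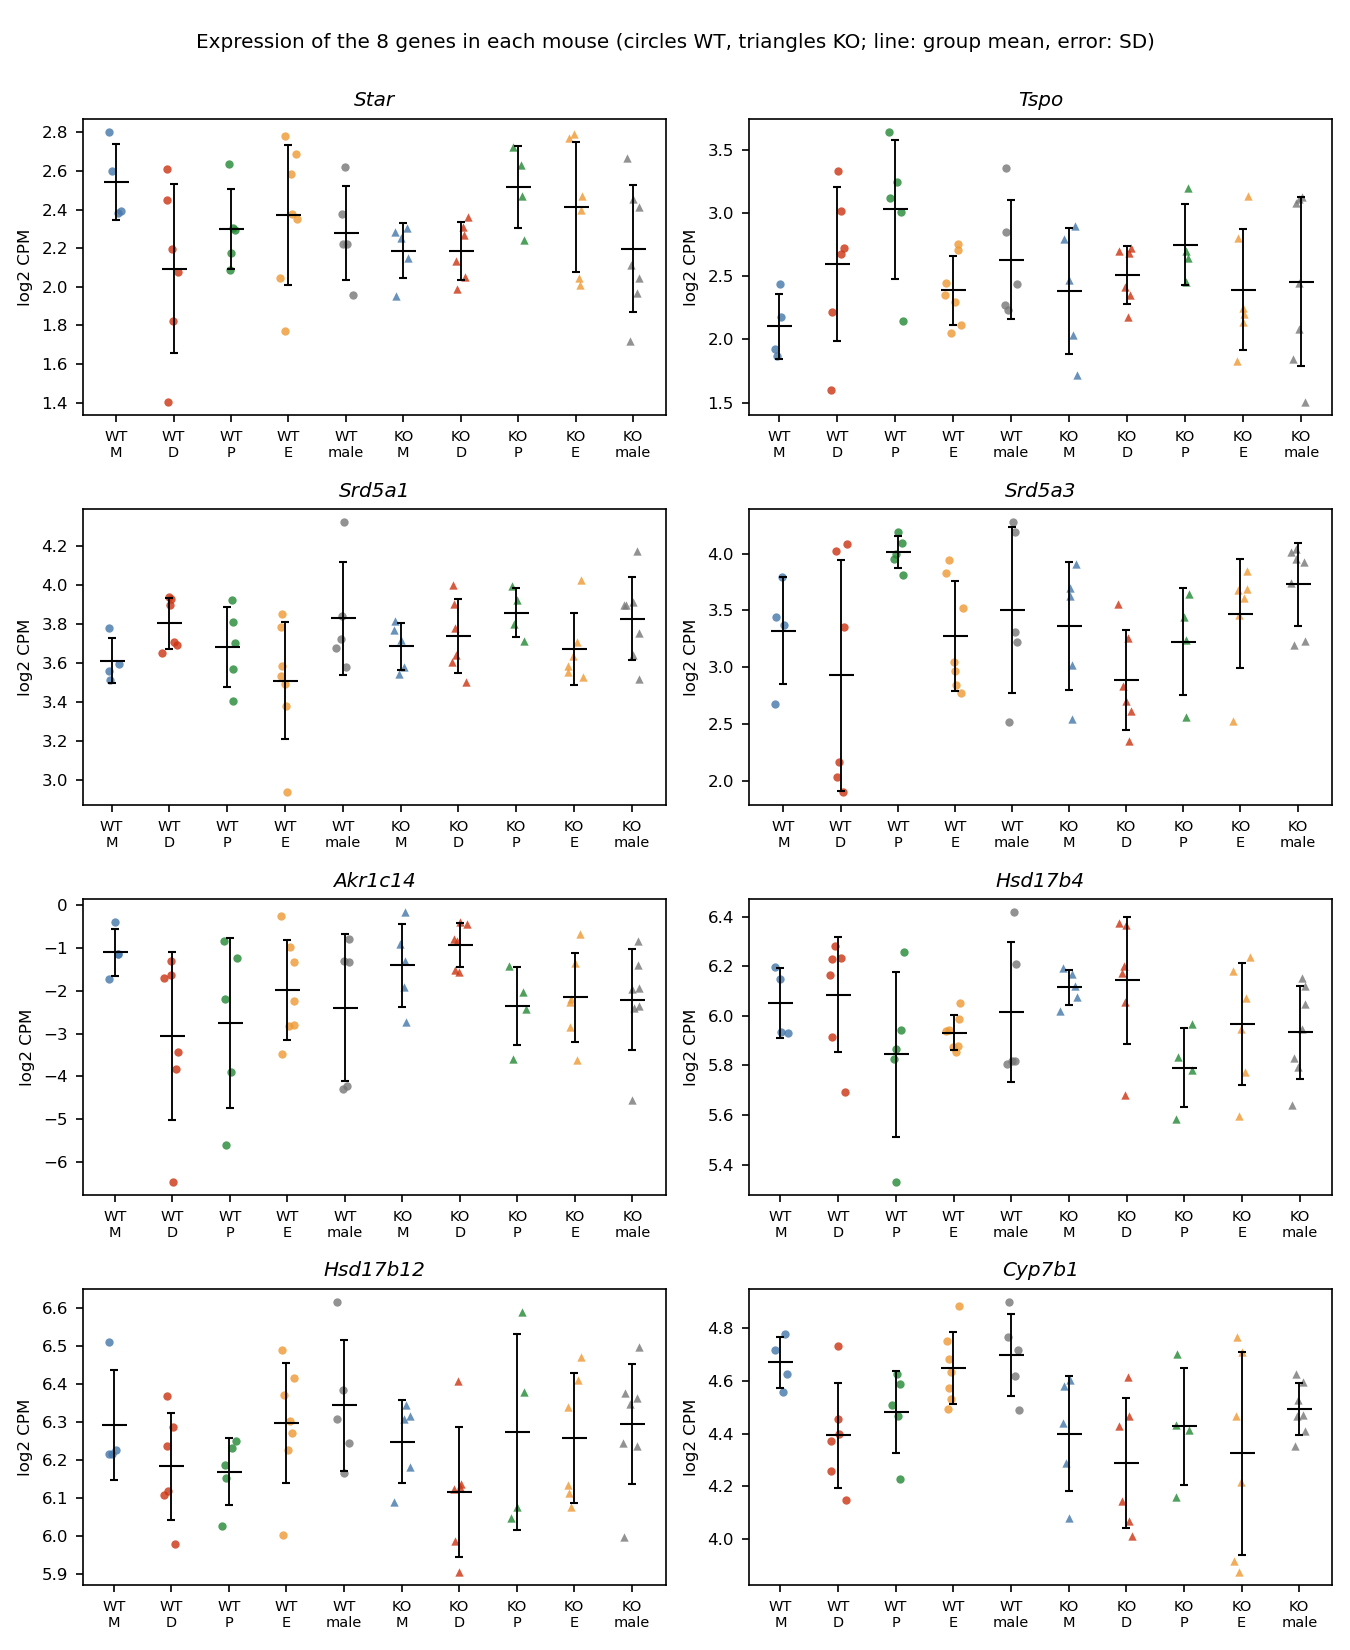
Log2 CPM of each of the 8 genes in each mouse by group (circles WT, triangles KO), with the group mean as a line and the SD as an error bar; the axes differ between panels. Srd5a3 shows the widest spread in WT diestrus (SD 1.01) and the narrowest in WT proestrus (SD 0.14), and Srd5a1 group means stay between 3.51 and 3.86.

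Star, which delivers cholesterol to the inner mitochondrial membrane, was lowest in WT diestrus. The 4 WT metestrus mice had 2.38, 2.39, 2.60 and 2.80 log2 CPM. WT diestrus mice ranged from 1.41 to 2.61 with a median of 2.14, and WT estrus mice from 1.77 to 2.78 with a median of 2.38. The groups overlapped. Star was lower in diestrus than in metestrus by 0.57 (SE 0.18, FDR = 0.045 by limma, background 7.24%) and rose to estrus by 0.46 (SE 0.17, FDR = 0.044 by limma, background 22.1%). The 3 WT diestrus mice under 14 weeks had 1.41, 1.82 and 2.08, and the older 3 had 2.20, 2.45 and 2.61. With the older mice alone the differences were -0.16 from metestrus and 0.05 to estrus (FDR = 1.00 and 0.96 by limma). Without diestrus replicate 3, 4 or 5 the first was -0.28 to -0.20 (FDR 0.80 to 0.87) and the second 0.08 to 0.16 (FDR 0.63 to 0.81). Leaving out metestrus replicate 1 or 2 also ended the first call (FDR 0.10 and 0.076), and estrus replicate 1, 2 or 3 the second (FDR 0.064 to 0.10).

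In KO mice Star passed in no stage comparison. KO diestrus mice ranged from 1.99 to 2.36 log2 CPM (median 2.20), and the 4 KO proestrus mice had 2.24, 2.47, 2.63 and 2.73. In metestrus the genotypes did not overlap, with KO mice at 1.95 to 2.30, and KO was lower by 0.35 (FDR = 0.53 by limma). The share of all genes without overlap there was not computed, so the separation is a description. No interaction passed for Star (smallest FDR = 0.21 by limma), and its differences between KO and WT ran from -0.35 to 0.28 (smallest FDR = 0.49 by limma). The gene most like Star over libraries was Btbd7 (r = 0.68).

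Markers of the oligodendrocyte lineage moved in both comparisons that called Star. From WT metestrus to diestrus, 7 of 15 mature markers were lower, with Mag at -0.87 and Cldn11 at -0.66, as was 1 of 9 precursor markers, Gpr17, at -1.06. From WT diestrus to estrus 9 of 15 and 5 of 9 were higher and none lower. The summed precursor markers stood at 78.0 to 100.5 CPM in WT metestrus, 61.2 to 101.3 CPM in diestrus and 82.3 to 101.1 CPM in estrus. Over the 55 libraries Star correlated with the precursor sum at r = 0.47, with the mature sum at 0.27 and with that of GABAergic interneurons at -0.50, and the part of these cells in the Star values was not tested.

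Tspo, the mitochondrial translocator protein, was highest in WT proestrus. The 5 mice had 2.14, 3.00, 3.12, 3.24 and 3.64 log2 CPM. The 7 WT estrus mice ranged from 2.05 to 2.75 with a median of 2.35. Above every estrus mouse lay 4 of the proestrus mice, and the other lay within the estrus range. Tspo was lower in estrus than in proestrus by 0.73 (SE 0.23, FDR = 0.042 by limma, background 6.82%). Against WT metestrus, at 1.87, 1.92, 2.18 and 2.44, proestrus was 0.96 higher and did not pass (FDR = 0.063 by limma). The call was lost without any of proestrus replicates 1, 2 and 3 or estrus replicates 1, 2 and 6 (0.54 to 0.74 lower, FDR 0.060 to 0.20). It was 0.56 lower (FDR = 0.12 by limma) without the 2 proestrus libraries whose RNA integrity number was under 8. The 4 KO proestrus mice ranged from 2.45 to 3.20 log2 CPM, and Tspo passed no test in KO mice.

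Tspo moved with markers of the choroid plexus, a tissue that borders the hippocampus. All 9 markers were tested, and 8 of 9 were lower in WT estrus than in proestrus (median -3.81), led by Otx2 (-3.16) and Kcnj13 (-3.81). The summed level of the 9 was 257 to 1434 CPM in the 4 proestrus mice with high Tspo and 48.1 CPM in the one with low Tspo. It was 20.2 to 117 CPM in estrus and 27.0 to 80.7 CPM in metestrus. Over the 55 libraries Tspo correlated with that sum on log2 scales at r = 0.71, and at 0.66 with group means removed. Leaving out the 19 libraries over 200 CPM, an alternative chosen after the data were seen, left 1 WT proestrus mouse, and estrus was then 0.22 higher (FDR = 0.96 by limma). Among the genes most like Tspo were Vamp8 (r = 0.82) and Ifitm3 (0.80). Among the other cholesterol delivery genes none of the leading 3 passed here (Acbd3 0.23, Stard3 -0.11, Stard5 -0.07), while Vdac1, Stard5 and Stard4 fell by 0.30, 0.31 and 0.30 from WT diestrus to estrus.

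**Figure D5:**
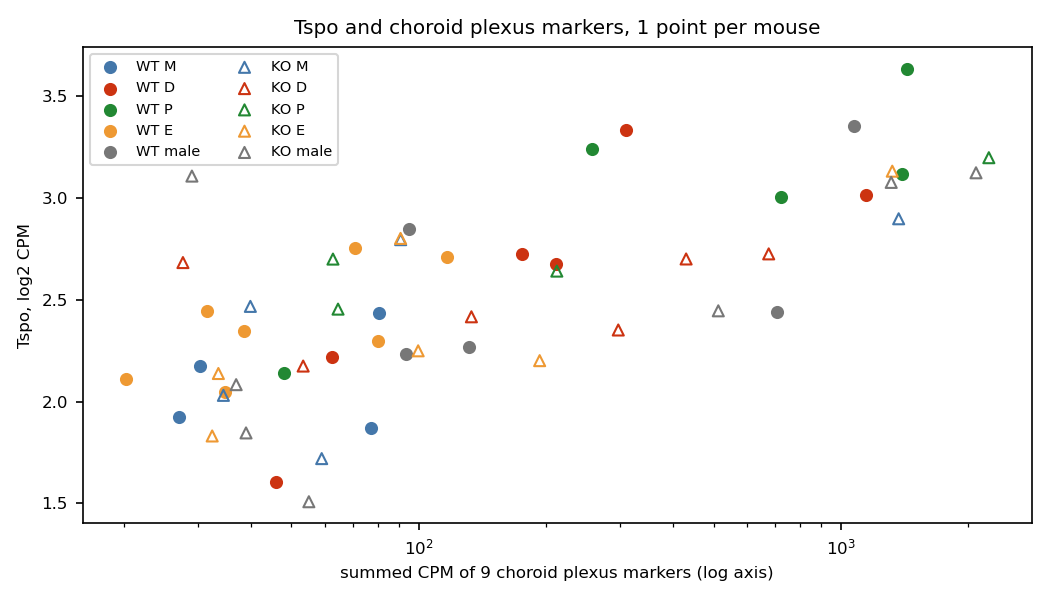
Tspo in log2 CPM against the summed CPM of 9 choroid plexus markers on a log axis, 1 point per mouse (filled circles WT, open triangles KO, coloured by stage or sex). Tspo was higher in libraries with more choroid plexus RNA (r = 0.71 over 55 libraries), and 4 of the 5 WT proestrus mice lie at 257 CPM or above.

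Hsd17b4, a peroxisomal enzyme that oxidizes estradiol and takes part in beta-oxidation, moved opposite to Srd5a3 in KO mice. The 6 KO diestrus mice ranged from 5.68 to 6.37 log2 CPM (median 6.19). The 4 KO proestrus mice had 5.58, 5.78, 5.83 and 5.97. KO estrus mice ranged from 5.60 to 6.24 (median 6.01) and KO males from 5.64 to 6.15 (median 5.95). Diestrus mice were high, with 5 of 6 above every proestrus mouse. Hsd17b4 was lower in proestrus than in diestrus by 0.40 (SE 0.10, FDR = 0.0015 by limma, background 34.3%) and in estrus by 0.28 (SE 0.094, FDR = 0.019 by limma), and diestrus was 0.22 higher than males (SE 0.085, FDR = 0.045 by limma). The proestrus difference kept its call with each of the 10 mice left out in turn (-0.45 to -0.34). With the 2 older KO diestrus mice, 5.68 and 6.17, the 3 values became -0.10, 0.01 and -0.09. With age as a term in the fit only the proestrus call was kept.

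Calls of Hsd17b4 in the remaining KO comparisons leaned on single mice. For estrus against diestrus they were estrus replicates 2 and 6 and diestrus replicates 2 and 5 (-0.23 to -0.21 without them, FDR 0.092 to 0.12). For diestrus against males they were diestrus replicates 2 and 5 and males 1, 2, 3, 4 and 6 (0.16 to 0.23, FDR 0.054 to 0.20). In WT mice the young diestrus mice were also higher, at 6.23, 6.23 and 6.28 against 5.69 to 6.16 in the older, and no WT comparison passed. The opposite course was visible across all libraries, where Hsd17b4 and Srd5a3 correlated at r = -0.47.

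Peroxisomal partners of Hsd17b4 shared part of its course. From KO diestrus to proestrus, 6 of 12 listed genes fell and 1 rose, with 34.3% of all genes called. Hsd17b4 itself is 1 of the 6, and its call was the reason for looking at this comparison. Scp2, a sterol carrier and thiolase (-0.35), and Abcd2, a transporter of acyl-CoA (-0.39), also fell. To estrus, Scp2 (-0.41) and Abcd2 (-0.26) fell. Against KO males, Scp2 (0.37) was higher in KO diestrus and Acaa1a was lower by 1.35. Of the other 17-beta-hydroxysteroid dehydrogenases tested, Hsd17b11 rose by 0.74 and Hsd17b7 fell by 0.26 from KO diestrus to proestrus. Hsd17b4 was most like Sdha, a subunit of succinate dehydrogenase (r = 0.93), Ndrg3 (0.92) and Elp2 (0.92).

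Some markers of astrocytes were called in the comparisons that called Hsd17b4. In KO diestrus 5 of 9 were higher than in KO males and none lower, with 28.7% of all genes called. S100b stood at 0.74 and Aldoc at 0.70. From KO diestrus to proestrus 3 fell, Aldh1l1 (-0.95) and Aldoc (-0.56) among them, and 1 rose, with 34.3% of all genes called. To estrus 3 fell and 1 rose, with 30.7% of all genes called. Their summed level was 2730 to 4079 CPM in KO diestrus, 2739 to 3266 CPM in proestrus, 2652 to 4421 CPM in estrus and 2388 to 2792 CPM in males. Over the 55 libraries Hsd17b4 correlated with the sums of CA1 and CA3 pyramidal markers at r = 0.59, of astrocyte markers at 0.46 and of oligodendrocyte precursor markers at -0.66. The part of these cells in the Hsd17b4 values was not tested.

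Hsd17b12, the ketoacyl-CoA reductase of fatty acid elongation that can also reduce estrone, was the steadiest gene of the set. KO diestrus mice ranged from 5.91 to 6.41 log2 CPM (median 6.13) and KO males from 6.00 to 6.50 (median 6.35). The ranges overlapped, with 5 of 6 diestrus mice below 6 of 7 males. It was lower in KO diestrus by 0.26 (SE 0.08, FDR = 0.0097 by limma), and by 0.20 without diestrus replicate 2 (FDR = 0.072). With the 2 older KO diestrus mice the difference was -0.08.

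The elongation enzymes around it moved the same way in that comparison. Of 11 listed genes with the member, 10 were lower in KO diestrus than in KO males and none higher (median -0.36), with 28.7% of all genes called in that comparison. Among them Elovl1 fell by 0.99, Elovl7 by 1.20 and Elovl4 by 0.44 (FDR 3.65e-07, 5.42e-06 and 5.15e-04 by limma), all elongases of long-chain fatty acids. Markers of mature oligodendrocytes, cells that make such lipids for myelin, were lower in the same comparison (13 of 15), and their part was not tested. Hsd17b12 was most like M6pr (r = 0.88), Tmbim6 (0.85) and Atp6ap2 (0.85).

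Cyp7b1, the oxysterol and steroid 7-alpha-hydroxylase, was the only gene of the set called between genotypes. WT metestrus mice had 4.56, 4.63, 4.72 and 4.78 log2 CPM, and KO metestrus mice 4.08, 4.29, 4.44, 4.58 and 4.61. WT estrus mice ranged from 4.49 to 4.89 (median 4.63) and KO estrus mice from 3.88 to 4.77 (median 4.34). WT males had 4.49, 4.62, 4.72, 4.77 and 4.90, and KO males ranged from 4.35 to 4.63 (median 4.47). KO values were lower on the whole and overlapped WT in each stage. The average over the 5 groups was lower in KO by 0.20 (SE 0.05, 95% CI 0.09 to 0.30 lower, FDR = 0.023 by limma, background 3.4%).

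The difference had the same sign in each of the 5 groups. It was -0.28 in estrus (FDR = 0.27 by limma), -0.23 in metestrus, -0.21 in males, -0.15 in diestrus and -0.11 in proestrus, none past the threshold alone. The call held in 52 of 55 fits without 1 mouse, and was lost without KO estrus replicate 3 or KO proestrus replicate 1 or 2 (FDR up to 0.11, the difference staying at -0.21 to -0.16). With the older diestrus mice alone it was -0.17 (FDR = 0.17 by limma). Restricted to mice of CNIH3 x B6 parents it was -0.16 (FDR = 0.23 by limma), and with mice of 14 weeks or more -0.06 (FDR = 0.78 by limma).

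Some markers of dentate granule cells were called in the same comparison of genotypes. Of 7, 3 were lower in KO and none higher (median -0.02), against 3.4% of all genes called, with C1ql2 at -0.59 and Trpc6 at -0.31 (FDR 1.51e-04 and 0.0079 by limma). Their summed level was 268 to 464 CPM in WT and 285 to 426 CPM in KO mice. Cyp7b1 correlated with that sum at r = 0.48 over the 55 libraries and at 0.36 with group means removed, and the part of these cells in the Cyp7b1 values was not tested.

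Cyp7b1 was also lower in KO diestrus (4.01 to 4.62 log2 CPM, median 4.29) than in KO males, by 0.26 (SE 0.10, FDR = 0.049 by limma). This call was lost without any 1 of 8 of the 13 mice, namely diestrus replicates 2, 3 and 4 and males 2, 3, 5, 6 and 7 (-0.27 to -0.19, FDR 0.052 to 0.17), and the 2 older diestrus mice gave 0.03. Of the other sterol hydroxylases, Cyp46a1, which makes 24-hydroxycholesterol in neurons, differed by -1.75 between KO diestrus and KO males (SE 0.29, FDR = 1.36e-05 by limma). Cyp27a1 (-0.40) and Cyp39a1 (-0.22) did not pass. Between genotypes none of these 3 passed, at 0.20 for Cyp27a1, 0.11 for Cyp39a1 and -0.05 for Cyp46a1. Cyp7b1 and Hsd17b12 were the pair of members that varied most alike (r = 0.54 over 55 libraries), and the gene most like Cyp7b1 was Bcap29 (r = 0.74).

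Genes for the classical route from pregnenolone to sex steroids were mostly too low to test. Of 13 listed genes of side chain cleavage and early synthesis, 5 were tested (Cyp11a1, Fdx1, Fdxr, Por and Cyb5a, of which all but Cyp11a1 are general electron carriers or their reductases). The other 8, with Cyp17a1, Cyp19a1 and Hsd3b1 among them, reached at most 20 counts in any library. The genes named here were chosen after their values were seen. Of the 6 untested 17-beta-hydroxysteroid dehydrogenases none exceeded 48 counts.

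Over all pathway lists together, without the 8 members, 50 of 80 listed genes were tested. Among the 50 were 5 partners of Srd5a3 in dolichol synthesis, 11 of Hsd17b4 in peroxisomal beta-oxidation and 10 of Hsd17b12 in fatty acid elongation. The shares below are therefore not of steroid synthesis genes alone. From WT diestrus to proestrus 5 rose and 2 fell (14% against 9.66% of all genes), and from KO diestrus to proestrus 16 rose and 9 fell (50% against 34.3%). From WT diestrus to estrus 5 rose and 6 fell (22% against 22.1%). In KO diestrus against KO males 8 were higher and 18 lower (52% against 28.7%, median -0.17 against 0.00 for all genes). These lists were chosen with results of the data known, so the shares are descriptions.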

How the data were processed

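The authors aligned reads to GRCm38 (Ensembl release 101) with STAR 2.7.9a and deposited raw gene counts from featureCounts 2.0.3, log2 CPM of the genes tested and transcript counts from Salmon 1.5.2. Counts came from poly-A cDNA of an NP-40 lysate supernatant. Every level and test was computed from the gene counts, 1 column without a listed mouse was not used, and the authors' log2 CPM were matched by the same normalization. Expected counts of transcripts deposited by the authors were summarised but no test used them. Genes over 1 CPM in at least 10 libraries, less 5 ribosomal genes, were normalized by TMM (edgeR 4.0.16) and fitted with voomWithQualityWeights in limma 3.58.1, with 1 mean per group, in R 4.3.3. FDR is Benjamini-Hochberg over 16168 genes within a comparison. Alternatives used edgeR, DESeq2 1.42.0, unweighted voom, other normalization, no filter, an age term, subsets by age, parents, RNA integrity or choroid plexus markers, and each mouse left out. Steps were checked on simulated counts. Each library is 1 mouse, which is the replicate, and replicate numbers are names only. Adjusted p that DESeq2 gave as NA stayed NA. Exon lengths and positions come from GENCODE. Members and lists were chosen with earlier results of these data known. Besides the members, the genes named were up to 3 of each pathway list with the smallest FDR where a member of it was called, up to 2 of a marker list, and the 3 genes most correlated with a member. Some genes that this rule names are not reported here.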

Additional observations from a re-analysis of the deposited data

Results flagged for a closer look

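Of the values, 4 stood apart from the rest of their group, measured as the gap to the nearest mouse relative to the range of the group, in 80 combinations of gene and group. About 1 in 20 groups is picked out by this measure by chance. In KO estrus 1 mouse, replicate 4, stood apart for both 5-alpha-reductases, with the lowest Srd5a3 (2.52 log2 CPM against 3.46 to 3.85) and the highest Srd5a1 (4.03 against 3.53 to 3.71). In KO males, replicate 2 had the lowest Akr1c14, at -4.55 log2 CPM from 2 counts (others -2.41 to -0.84). In WT metestrus, replicate 3 had the highest Hsd17b12, at 6.51 log2 CPM (others 6.21 to 6.23).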

How the results depend on the processing

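Against 7 calls between stages, 4 against males and 1 between genotypes, edgeR, DESeq2 and limma without quality weights each gave 0, 0 and 0. Over all genes the main fit made 20523, 6976 and 634 calls. These 3 fits made 1389, 2301 and 2392 between stages, 1079, 1885 and 1332 against males, and 164, 226 and 162 between genotypes. No filter on low counts gave 1, 1 and 0 (over all genes 10169, 3378 and 333). Diestrus mice of 14 weeks or more alone gave 1, 0 and 0 (over all genes 1711, 2092 and 273). Those under 14 weeks gave 20 between stages and 7 against males (over all genes 38120 and 12261). The counts of the set thus moved with those of all genes. Age as a term gave 6 between stages, 1 against males and 1 between genotypes (over all genes 13496, 1682 and 477). Of the 12 calls it kept Tspo in WT estrus against proestrus and Srd5a3 in WT proestrus against diestrus and KO diestrus against males. Hsd17b4 in KO proestrus against diestrus and Cyp7b1 between genotypes were also kept. The other calls of the 12 were not. Counts are left out for subsets that left 1 mouse in some groups. Such were the mice of 14 weeks or more, those of CNIH3 x B6 parents, and the limit on choroid plexus markers, chosen after the data were seen. Interactions stayed at 0 throughout. Leaving out 1 mouse gave 4 to 18 between stages (4 without WT diestrus replicate 3, 4 or 5, and 15, 18 and 17 without replicate 1, 2 or 6), 1 to 6 against males (1 without KO diestrus replicate 2, 2 without KO male replicate 2) and 0 to 1 between genotypes (0 without KO estrus replicate 3 or KO proestrus replicate 1 or 2). Stage calls over all genes were 14224 to 14357 without WT diestrus replicate 3, 4 or 5. They were 30922 to 31132 without WT diestrus replicate 1, 2 or 6.

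Signs turned as follows. With older diestrus mice alone, Srd5a3 was -0.44 for WT estrus against diestrus and 0.13 for WT diestrus against males, Hsd17b4 was 0.0110 for KO estrus against diestrus and -0.0857 for KO diestrus against males, and Cyp7b1 was 0.0315 for the latter. With all mice of 14 weeks or more, Srd5a3 was -0.44 for WT estrus against diestrus and -0.60 for KO proestrus against diestrus, Hsd17b4 was 0.0676 for KO proestrus against diestrus and -0.0867 for KO diestrus against males, and Cyp7b1 was 0.0312 for the latter. Under the choroid plexus limit, Tspo was 0.22 for WT estrus against proestrus, Srd5a3 -0.44 for WT estrus against diestrus and -0.20 for KO proestrus against diestrus, and for KO diestrus against males Hsd17b4 was -0.0152 and Cyp7b1 0.0370. With CNIH3 x B6 parents alone, Srd5a3 was 0.0338 for WT estrus against proestrus. Without WT diestrus replicate 3, 4 or 5, Srd5a3 was -0.0295, -0.0379 and -0.0147 for WT estrus against diestrus, within a range of -0.0379 to 1.03 over all mice left out in turn. The cause was not tested. Of 324 values of single genes under alternatives, 205 kept direction and side of the threshold, as did 174 of 238 with a mouse left out.

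Parents, age and choroid plexus limits left 1 mouse in some groups, assumed there to vary like the others. No paired analysis was possible because replicate numbers were given in accession order and only name mice, and no source used here says what the shared first part of some mouse names marks. Counts of Star, Tspo and Srd5a3 were 97 to 985 per library, which limits their precision.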
